A study of Homo sapiens with 3 samples.

Results

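SR proteins and hnRNPs are the main RNA-binding proteins that decide which exons of a pre-mRNA are kept. The H3K4 methylation at their genes was described in ALL-SIL, a human line established from T-cell acute lymphoblastic leukaemia, a cancer of immature T cells. The set held 34 genes, named by family: 14 SR proteins (SRSF1 to SRSF12, TRA2A and TRA2B), 17 hnRNP proteins, and 3 factors that bind the 3′ splice site (SF3B1, U2AF1 and U2AF2). All 34 were found among the 20037 protein-coding genes on the main chromosomes of the RefSeq annotation of GRCh38. The study held 3 samples of this 1 line, grown in RPMI medium with serum and with no treatment named: chromatin pulled down for H3K4me1, chromatin pulled down for H3K4me3, and input DNA. Each was 1 library. ChIP-seq recovers DNA bound to a modified histone from formaldehyde-fixed chromatin; H3K4me1 was pulled down with ab8895 and H3K4me3 with ab8580, per the labels' protocols. The marks had no biological replicate, so every value below describes these libraries, and no difference between genes could be tested against replicate error.

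SR proteins carry domains rich in arginine and serine, bind exonic enhancers and recruit the spliceosome. Many hnRNPs bind silencers and oppose exon inclusion, so the ratio of these families sets many splice choices. U2AF2 binds the polypyrimidine tract, U2AF1 the AG that ends the intron, and SF3B1 is part of the U2 particle at the branch point. H3K4me3 marks nucleosomes around active starts, and H3K4me1 lies on the flanks of starts and at distal enhancers. Long H3K4me3 domains are known from genes of cell identity and from strongly transcribed genes. RNA was not analysed here, so a mark is not a measure of expression or of splicing.

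After filtering, the H3K4me1 library held 34813455 tags and gave 62087 peaks, the H3K4me3 library held 30823016 tags and gave 11100 peaks, and the input held 18859011 tags. Of 10 T cell marker genes, 8 had an H3K4me3 peak within 1 kb of an end of the gene, against 1 of 7 B cell markers, 0 of 7 myeloid markers and 0 of 6 erythroid markers. CD2 had none and CD5 had one only inside the gene, while the B cell gene was CD79B, with a peak of 355 bp. Inside the gene only, the B cell gene PAX5 had a peak of 197 bp and the erythroid gene EPOR one of 876 bp. The defining markers CD3D, CD3E, CD3G, CD7 and LCK carried the mark, which matches the labelled T-cell line.

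H3K4me3 was found at 31 of the 34 splicing factor genes (91.2%, exact Clopper-Pearson 95% interval 76.3 to 98.1%). Here and below a gene counted as marked where a peak overlapped the window from 1 kb before to 1 kb after either end of the annotated gene. By the same count 9904 of all protein-coding genes were marked (49.4%). The SR genes contributed 12 of 14, the hnRNP genes 16 of 17 and the 3′ splice site genes 3 of 3. With peaks inside the gene counted as well, 32 of 34 splicing factor genes were marked (94.1%), against 53.4% of all protein-coding genes. These intervals treat genes as independent draws and cover counting error only.

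The 3 genes without H3K4me3 at an end were SRSF8, SRSF12 and HNRNPH1, and they differed from each other. SRSF8 (chr11:95066877-95071225), a primate gene that arose from a copied SRSF2 transcript, had no H3K4me3 peak and no H3K4me1 peak in the gene or within 50 kb of it. SRSF12 (chr6:89095959-89118071), an SR protein known as a splicing repressor, also had none over the gene. Its nearest H3K4me3 peak lay 13054 bp away, and 2 H3K4me3 peaks and 4 H3K4me1 peaks lay within 50 kb. HNRNPH1, which binds runs of G, did carry H3K4me3, but inside the annotated span. The annotated gene (chr5:179614178-179634784, minus strand) has 4 starts listed by RefSeq. The outermost, at 179634784, had no peak. A single H3K4me3 peak of 5651 bp (chr5:179618984-179624634) covered the starts at 179624600, 179623671 and 179623401. Its pileup, the mean number of extended fragments over each base of the peak, was 13.55, and its fold over the local background was 5.63. H3K4me1 peaks crossed both of its edges.

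The starts of these 3 genes are shown to set the marked and unmarked ones side by side, with CpG dinucleotides in capitals. Each sequence runs 5′ to 3′ on the gene's strand over 280 bases, from 250 bases before the listed start to 30 bases from it (RefSeq, GRCh38.p14). The window of SRSF8 is chr11:95066627-95066906 (plus strand) and that of SRSF12 is chr6:89118042-89118321 (minus strand). The windows of HNRNPH1 are chr5:179634755-179635034 for the start without H3K4me3 and chr5:179623372-179623651 for a start under the peak, both on the minus strand.
SRSF8 start: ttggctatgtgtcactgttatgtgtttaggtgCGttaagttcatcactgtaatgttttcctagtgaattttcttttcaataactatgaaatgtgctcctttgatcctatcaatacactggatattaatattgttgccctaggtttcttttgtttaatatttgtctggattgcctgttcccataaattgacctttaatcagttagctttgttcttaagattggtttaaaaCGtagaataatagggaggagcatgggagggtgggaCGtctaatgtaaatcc
SRSF12 start: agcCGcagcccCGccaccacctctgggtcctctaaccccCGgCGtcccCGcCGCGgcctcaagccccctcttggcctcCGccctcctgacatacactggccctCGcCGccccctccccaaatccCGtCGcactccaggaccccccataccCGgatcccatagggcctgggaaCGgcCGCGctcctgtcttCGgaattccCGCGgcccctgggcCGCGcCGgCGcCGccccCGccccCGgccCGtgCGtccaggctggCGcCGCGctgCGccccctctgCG
HNRNPH1 outermost start: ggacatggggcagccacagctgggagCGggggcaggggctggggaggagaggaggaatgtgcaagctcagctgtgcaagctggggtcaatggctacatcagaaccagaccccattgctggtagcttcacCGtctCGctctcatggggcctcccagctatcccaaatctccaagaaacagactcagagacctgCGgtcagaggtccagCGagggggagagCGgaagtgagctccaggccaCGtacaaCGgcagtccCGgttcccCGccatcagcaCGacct
HNRNPH1 inner start: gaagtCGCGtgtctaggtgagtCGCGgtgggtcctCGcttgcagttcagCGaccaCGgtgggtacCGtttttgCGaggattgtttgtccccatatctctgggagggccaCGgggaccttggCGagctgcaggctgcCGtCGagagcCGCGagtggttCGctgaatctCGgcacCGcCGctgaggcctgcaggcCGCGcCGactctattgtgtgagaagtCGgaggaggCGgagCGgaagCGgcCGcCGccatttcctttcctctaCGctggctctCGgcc
SRSF8 held 3 CpG in these 280 bases and the outermost HNRNPH1 start held 11, against 30 at the inner HNRNPH1 start. SRSF12 held 33, more than the inner HNRNPH1 start, and carried no H3K4me3 peak. CpG and the mark did not wholly run in parallel within HNRNPH1 either: in windows of 300 bases the unmarked outermost start held 11, against 10, 30 and 33 at the marked starts 179624600, 179623671 and 179623401. That exception rests on the start at 179624600, which lay only 34 bp inside the edge of the H3K4me3 peak and also under an H3K4me1 peak.

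The H3K4me3 domains of the splicing factor genes were long. Peaks separated by up to 1 kb were joined into a domain, and the longest domain at an end was taken for each gene; for each of the 31 marked genes it was a single peak. The median domain length was 3023 bp over the splicing factor genes (quartiles 2269.5 and 4516 bp, range 266 to 8460 bp), against 1575.5 bp over all marked protein-coding genes (quartiles 1152 and 2139.25 bp). The lower quartile of the splicing factor genes thus lay above the upper quartile of all marked genes. A domain of 4 kb or more, called broad, was found at 11 of the 34 genes (32.4%, interval 17.4 to 50.5%), against 1.65% of all protein-coding genes. Of the marked genes, the share was 35.5% of the splicing factor genes (interval 19.2 to 54.6%) and 3.33% of all protein-coding genes. In the whole H3K4me3 list 315 of 11036 domains were this long. Long domains were not particular to the splicing factor genes: of the 10 T cell markers 4 were broad (40%, interval 12.2 to 73.8%), and the median of the 8 marked ones was 3200.5 bp. CD3D and CD3G shared 1 of these domains.

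The broad domains lay mostly at hnRNP genes, with 8 of 17 (47.1%, interval 23 to 72.2%), against 3 of 14 SR genes and 0 of 3 splice site genes. The median length was 4092 bp at the 16 marked hnRNP genes, 2469.5 bp at the 12 marked SR genes and 2286 bp at the 3 splice site genes. The ranges of the families overlapped, from 1900 to 8460 bp for hnRNP genes and from 1747 to 6249 bp for SR genes, and the difference between families was not tested.

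**Figure D1:**
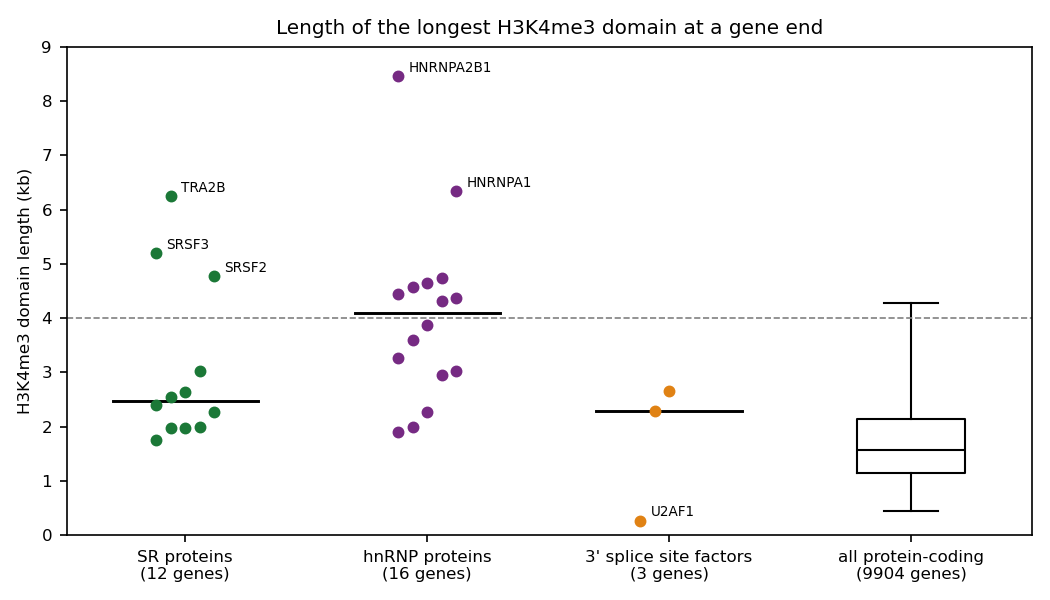
Length in kb of the longest H3K4me3 domain at an end of each marked SR gene (12), hnRNP gene (16) and 3′ splice site gene (3), 1 point a gene with the family median as a line, beside a box of all 9904 marked protein-coding genes (median and quartiles, whiskers from the lowest to the highest 2.5%). The dashed line is the limit of 4 kb: 8 hnRNP genes and 3 SR genes lie above it.

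Among the SR genes, TRA2B had the longest domain, with 6249 bp (chr3:185931792-185938040). TRA2B binds GAA-rich exonic enhancers and is a human relative of the fly sex-determination factor transformer-2. Its pileup was 11.13 and its fold 3.49. The domain began 26 bp upstream of the listed start and ran 6222 bp into the gene, so it lay almost wholly on the transcribed side. SRSF3, the smallest SR protein and an adaptor of mRNA export, had a domain of 5205 bp (chr6:36593252-36598456, pileup 15.72, fold 4.62). It reached 1110 bp upstream and 4094 bp downstream of the start and covered 36.4% of the gene. SRSF2, an SR protein recurrently mutated in myeloid neoplasms, had 4778 bp (chr17:76733935-76738712, pileup 14.21, fold 3.69). That domain covered 100% of the short SRSF2 gene and also reached the ends of METTL23 and MFSD11.

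The remaining 9 marked SR genes had domains between 1747 and 3023 bp. SRSF1, the founding SR protein and a proto-oncogene, was the longest of them, with 3023 bp, a pileup of 15.62 and a fold of 5.83. A further domain of 2060 bp at the other end of SRSF1 also reached an end of VEZF1. SRSF7, an SR protein with a zinc knuckle, had 2631 bp, and SRSF10, which turns into a repressor when dephosphorylated, had 2550 bp with the highest pileup of the SR genes, 19.87. SRSF6 had 2389 bp at a pileup of 8.57, SRSF4 2275 bp at 10.71, SRSF5 1978 bp at 15.04 and SRSF9 1975 bp at 15.49. These 4 are classical SR proteins that bind exonic enhancers. TRA2A, the paralogue of TRA2B, had the shortest SR domain, 1747 bp, at a pileup of 18.7. SRSF11 had 1990 bp at a pileup of 5.95 and a fold of 2.97, the lowest of the SR genes. A separate peak inside SRSF11 covered its other listed start, with 1984 bp and a pileup of 8.84.

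Of the hnRNP genes, HNRNPA2B1 had the longest domain, 8460 bp (chr7:26196518-26204977), rank 31 of the 11036 domains. HNRNPA2B1 binds UAG-containing RNA and acts in splicing and RNA transport. Its pileup was 13.12 and its fold 3.29, a mean signal below the median of the set in both measures. The domain extended 4231 bp upstream and 4228 bp downstream of the start, and the upstream side reached the end of CBX3, a heterochromatin protein gene. HNRNPA1, a close relative and an exon silencer, had 6341 bp (chr12:54278189-54284529, pileup 14.01, fold 4.43). It covered 59.8% of the gene and reached an end of CBX5, another heterochromatin protein gene, and of the lncRNA SCAT2. Both of these A/B-type genes thus shared their domain with a gene of the HP1 family.

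The other 6 broad hnRNP domains spanned 4307 to 4746 bp. HNRNPH3, a G-run binder, had 4746 bp (chr10:68331349-68336094, pileup 14), with all 3 of its listed starts under the peak. HNRNPD, which binds AU-rich elements and controls mRNA decay, had 4640 bp (chr4:82371166-82375805, pileup 11.56), and its relative HNRNPDL had 4307 bp (chr4:82427234-82431540, pileup 13.78). Both lie on chromosome 4, under separate domains. HNRNPK, a KH-domain protein that binds C-rich RNA, had 4581 bp (chr9:83977471-83982051, pileup 12.66). HNRNPU, a nuclear scaffold protein, had 4451 bp (chr1:244860967-244865417, pileup 16.59). HNRNPL binds CA repeats and is known in T cells for repressing variable exons of CD45. It had 4362 bp (chr19:38848328-38852689) with a pileup of 24.21, the highest of the set, and a fold of 6.21.

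The limit of 4 kb cut through a continuous range. The 3 genes nearest above it were HNRNPDL with 4307 bp, HNRNPL with 4362 bp and HNRNPU with 4451 bp. The 3 nearest below were HNRNPF with 3877 bp, HNRNPA0 with 3600 bp and HNRNPR with 3273 bp. With a limit of 3 kb, 16 of the 34 genes would be broad (47.1%), against 4.49% of all protein-coding genes. HNRNPH1, whose domain of 5651 bp lay inside the gene, would be a 12th gene past 4 kb if domains were counted anywhere in the gene, against 1.87% of all protein-coding genes.

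Of the 5 highest pileups of the set, 3 were at hnRNP domains under 4 kb. PTBP1, the pyrimidine-tract repressor of neuronal exons, had 2956 bp at a pileup of 23.77. HNRNPA3 had 3033 bp at a pileup of 22.46 and the highest fold of the set, 10.2, and HNRNPR, a relative of SYNCRIP, had 3273 bp at a pileup of 20.73. PTBP2, the paralogue that replaces PTBP1 in developing neurons, had 1993 bp at 19.51. In contrast, HNRNPF had 3877 bp at a pileup of 9.31 and HNRNPA0 3600 bp at 9.74, both low. HNRNPC, which binds U tracts as a tetramer, had 2264 bp at 13.23, and HNRNPM, a binder of GU-rich RNA, 1900 bp at 13.1. HNRNPF carried a further peak inside the gene, of 2757 bp at a pileup of 14.98, over its other listed start.

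Length and mean signal did not go together across these genes. The median pileup was 14.01 over the splicing factor genes (quartiles 12.11 and 16.975), close to 13.55 over all marked protein-coding genes (quartiles 10.29 and 17.4225). The median fold was 4.83 in the splicing factor genes and 4.56 in all marked genes. Across the 31 genes the Pearson correlation of length with pileup was 0.026 (Spearman 0.019), and across the 8160 domains that were the longest at an end of a protein-coding gene it was 0.0044 (Spearman 0.063). These are correlations across genes within 1 library, which share its depth, and are given as a description. The length of the gene and that of its domain had a Pearson correlation of -0.35 across the 31 genes (Spearman -0.36).

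**Figure D2:**
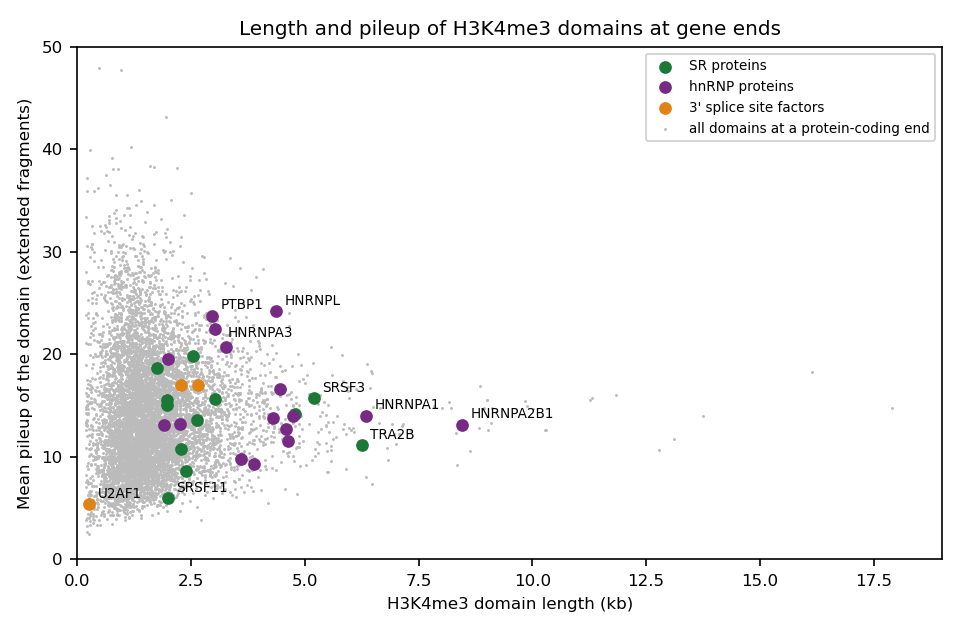
Mean pileup (extended fragments) against length in kb of the H3K4me3 domain, for the 31 splicing factor genes marked at an end (coloured by family) and for all 8160 such domains at protein-coding genes (grey). The splicing factor genes are shifted to the right, with a median of 3.023 kb, while their pileups lie within the range of the grey points.

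The sequences at the starts of HNRNPA2B1, TRA2B and HNRNPL are shown as those of the longest domain, the most one-sided one and the one with the highest pileup. CpG are in capitals, and each sequence covers 280 bases 5′ to 3′ on the minus strand, from 250 bases before the listed start (RefSeq, GRCh38.p14). The window is chr7:26200717-26200996 for HNRNPA2B1, chr3:185937985-185938264 for TRA2B and chr19:38852318-38852597 for HNRNPL.
HNRNPA2B1 start: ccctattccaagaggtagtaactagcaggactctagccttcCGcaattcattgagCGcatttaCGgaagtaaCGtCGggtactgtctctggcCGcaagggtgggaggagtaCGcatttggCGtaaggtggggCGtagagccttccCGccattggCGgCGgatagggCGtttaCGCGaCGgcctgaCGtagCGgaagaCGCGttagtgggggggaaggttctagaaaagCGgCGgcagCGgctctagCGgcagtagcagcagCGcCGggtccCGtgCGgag
TRA2B start: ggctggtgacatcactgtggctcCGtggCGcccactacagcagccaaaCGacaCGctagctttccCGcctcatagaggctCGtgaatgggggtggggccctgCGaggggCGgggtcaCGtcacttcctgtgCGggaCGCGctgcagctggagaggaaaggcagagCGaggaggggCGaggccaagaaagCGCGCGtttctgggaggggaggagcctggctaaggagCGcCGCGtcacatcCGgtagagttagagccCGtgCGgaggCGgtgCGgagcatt
HNRNPL start: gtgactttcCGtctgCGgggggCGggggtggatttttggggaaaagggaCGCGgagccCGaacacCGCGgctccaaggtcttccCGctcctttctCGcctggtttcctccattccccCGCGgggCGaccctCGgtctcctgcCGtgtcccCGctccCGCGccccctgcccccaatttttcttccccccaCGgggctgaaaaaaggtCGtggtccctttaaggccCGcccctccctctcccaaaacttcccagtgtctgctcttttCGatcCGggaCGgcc
The printed windows held 28 CpG for HNRNPA2B1, 25 for TRA2B and 24 for HNRNPL. In whole promoter windows of 300 bases, from 250 before to 50 after a start, the median was 30 CpG over the 31 splicing factor genes with a listed start (range 3 to 48). Each gene entered with 1 window, at its most upstream listed start under H3K4me3 or, with none marked, at its most upstream start. The median was 22 over 15843 protein-coding genes, 27 over those whose start lay under H3K4me3 and 11 over those whose start did not. SRSF2, TRA2A and HNRNPA1 had no entry. Among these windows the highest count was 48 at SRSF4, whose domain was 2275 bp. The lowest counts at marked starts were 10 at HNRNPH1, 11 at PTBP2 and 15 at HNRNPC. The HNRNPH1 start used here lay 34 bp inside the edge of its peak.

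A set of 7 short motifs was counted in the same windows on both strands. The CRE core TGACGT was in 6 of 31 splicing factor promoters (19.4%), those of SRSF1, SRSF3, SRSF5, TRA2B, HNRNPA2B1 and U2AF1, against 9.67% of all promoters and 13.1% of all marked ones. CCAAT was in 14 of 31 (45.2%), against 36.4% of all promoters and 38.7% of marked ones. The ETS core CCGGAAG was in 5 (16.1%), against 14.5% and 24.6%. The NRF1 motif, GCGC and TGCGC with 1 base between them, was also in 5 (16.1%), against 8.74% and 14.6%. GGGCGG, the GC box, was in 19 (61.3%), against 59.3% and 74.3%, TATAAA in 3 (9.68%), against 9.59% and 4.45%, and the YY1 core ATGGCGG in 4 (12.9%), against 7.66% and 12.7%. No motif of the set contains another. A match is a run of letters in a window and does not show binding.

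The domains extended mainly into the genes. For 27 splicing factor genes with a listed start inside the domain at their end, 24 reached further downstream than upstream (88.9%, interval 70.8 to 97.6%), against 73.7% of 7145 protein-coding genes. That interval includes the share of all protein-coding genes, so this count is not set apart from the background. The median reach was 856 bp upstream and 2202 bp downstream in the splicing factor genes, against 585 and 955 bp in all protein-coding genes. For the 9 broad ones the median was 1078 bp upstream and 4019 bp downstream, with 8 of 9 longer downstream. The 4019 bp is the reach of HNRNPL, whose domain held another listed start further in, at 38849986. Reach from such inner starts was not computed. The 248 broad protein-coding genes counted alike had medians of 1451 and 3365 bp, and 177 of them were longer downstream (71.4%). The interval of the 8 of 9, 51.8 to 99.7%, includes that share. HNRNPA2B1 was the broad gene that reached as far on both sides.

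At a distance of 2 kb inside the gene, 59.3% of the 27 splicing factor genes lay under H3K4me3 (interval 38.8 to 77.6%), against 9.48% of all protein-coding genes. At 3 kb the shares were 29.6% and 3.19%, and at 4 kb 18.5% and 1.65%. At 1 kb upstream of the start they were 40.7% and 21.6%. H3K4me1 was displaced in the same direction. At 1 kb downstream 0 of the 27 splicing factor genes had an H3K4me1 peak (interval up to 12.8%), against 28.2% of all protein-coding genes. At 2 kb the shares were alike, 37.0% and 39.3%. At 4 kb downstream 59.3% of the splicing factor genes had one (interval 38.8 to 77.6%), against 19.5% of all protein-coding genes, whose own share was higher nearer to the start. This share rested on weak peaks: all of those at 4 kb in the splicing factor genes had a −log10 q under 5. The strongest was 4.85 at SRSF1. The shares by distance were not recomputed without weak peaks, for either set of genes.

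**Figure D3:**
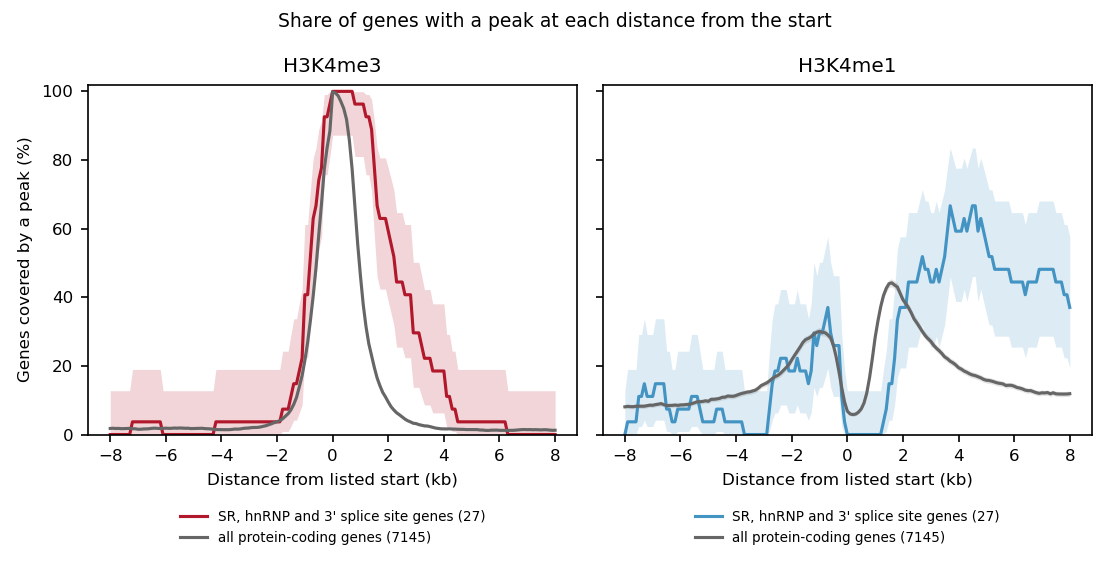
Share of genes (%) under an H3K4me3 peak (left) or an H3K4me1 peak (right) at each distance in kb from the listed start, positive values running into the gene, for 27 splicing factor genes (coloured, with exact 95% intervals as bands) and 7145 protein-coding genes (grey). Starts were required to lie under the gene's H3K4me3 domain, which sets the value at 0 on the left. The splicing factor genes keep H3K4me3 to a greater distance, 59.3% against 9.48% at 2 kb. Their H3K4me1 lies further in, at 4 kb only on weak peaks of −log10 q under 5.

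H3K4me1 lay on both flanks of most of these domains, meaning that an H3K4me1 peak covered part of the 2 kb beyond each edge. This held for 23 of 31 marked splicing factor genes (74.2%, interval 55.4 to 88.1%), against 59.5% of all marked genes. Another 6 genes had 1 flanked side, and 2 had none (6.45%, against 10.1% of all marked genes). The interval of the splicing factor genes includes the share of all genes, so this count is not set apart from the background. These flanks rested mostly on weak H3K4me1 peaks: with peaks of −log10 q under 5 left out of both lists, 1 of 29 marked genes had both flanks (3.45%), against 7.08% of all marked genes. H3K4me1 overlapped the H3K4me3 domain itself in 14 of 31 genes (45.2%), against 46.0% of all marked genes. An H3K4me1 peak within 1 kb of an end of the gene was found for 18 of the 34 (52.9%, interval 35.1 to 70.2%), against 42.6% of all protein-coding genes.

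At these genes H3K4me1 usually followed H3K4me3 closely. Of the 62 domain edges, 52 were flanked, 19 of them crossed by an H3K4me1 peak, and the median gap at flanked edges was 126.5 bp. The downstream edge was flanked in 26 of 28 genes with a listed start and the upstream edge in 21. Edges, gaps and sides were not counted over all marked genes, so these values are not read as particular to the set. By gene, 59.5% of all marked genes had both flanks and 30.4% had 1. SRSF6, TRA2B, HNRNPA3, HNRNPL and SF3B1 lacked the upstream flank and had the downstream one. For TRA2B the next H3K4me1 peak upstream was 5302 bp from the edge, whereas downstream one began 386 bp from it. For HNRNPL that upstream gap was 8220 bp, for SF3B1 15026 bp and for HNRNPA3 41012 bp. For SRSF6 it was 1763950 bp. TRA2A was flanked on 1 side as well. PTBP2 and U2AF1 had neither flank and no H3K4me1 peak within 50 kb. For PTBP2 the nearest H3K4me1 peaks were 1487222 and 368035 bp from the edges, although its H3K4me3 pileup of 19.51 was among the higher ones.

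**Figure D4:**
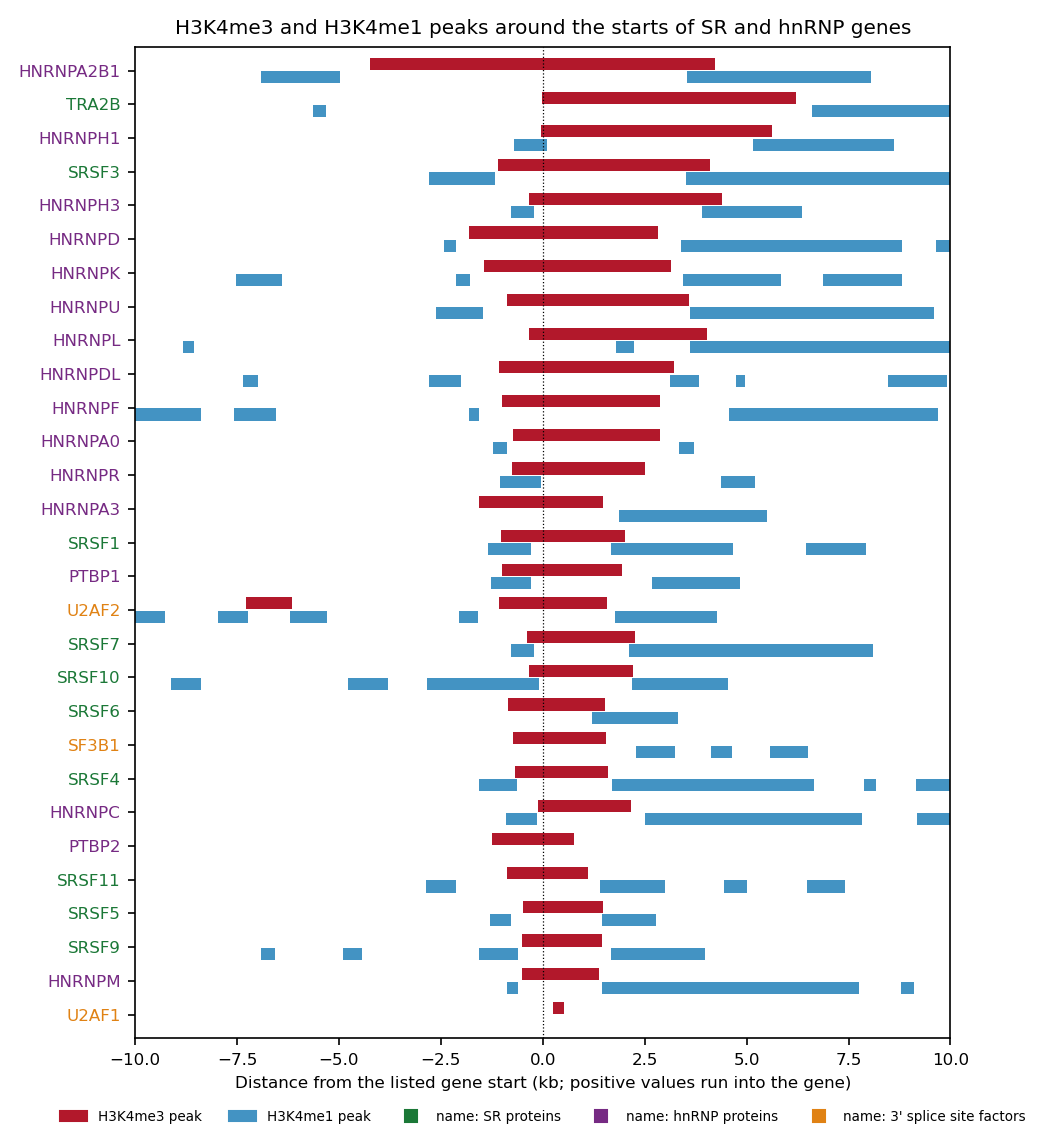
H3K4me3 peaks (red) and H3K4me1 peaks (blue) from 10 kb before to 10 kb after the listed start of the 29 splicing factor genes with a start and a domain, sorted by domain length, with positive distances in kb running into the gene and gene names coloured by family. The row of HNRNPH1 is drawn from the start at its inner domain; TRA2B reaches 26 bp upstream and 6222 bp downstream, PTBP2 and U2AF1 have no H3K4me1 peak in the window, and other rows show H3K4me1 beyond at least 1 edge.

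Further H3K4me1 peaks were counted as distal where they lay in the gene or within 50 kb of it and overlapped neither H3K4me3 nor the 1 kb windows at gene ends. The splicing factor genes had a median of 4 (quartiles 1.25 and 6, range 0 to 9), against 3 over all protein-coding genes (quartiles 1 and 5), so they did not stand out. These counts rested on weak peaks: with −log10 q of at least 5 the median of the splicing factor genes was 0. HNRNPC had the most, with 9, then HNRNPF with 8, and SRSF3, SRSF4, HNRNPA3 and HNRNPM with 7 each. SRSF6, SRSF8, HNRNPH1, PTBP2 and U2AF1 had 0. HNRNPC spans 60296 bp, and 7 of its 9 lay inside the gene. H3K4me3 peaks within 50 kb numbered a median of 2 for the splicing factor genes, against 1 for all protein-coding genes, with 7 at U2AF2 as the most.

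Some of the length was shared with neighbours. Such sharing was common in the background as well: of all 20037 protein-coding genes 9904 were marked, and 16464, unmarked ones included, shared no domain. The number of splicing factor genes that shared a domain is thus not read as particular to the set. For 10 of the 31 genes the domain also reached within 1 kb of an end of another protein-coding gene: METTL23 and MFSD11 at SRSF2, DYNLL1 at SRSF9, LRRC40 at SRSF11, CBX5 at HNRNPA1, CBX3 at HNRNPA2B1, ENOPH1 at HNRNPDL, PBLD at HNRNPH3, RMI1 at HNRNPK, LOC124904588 at HNRNPU and CCDC106 at U2AF2. This was so for 7 of the 11 broad ones (63.6%, interval 30.8 to 89.1%), against 28.0% of the 250 broad domains at protein-coding ends. It was so for 3 of the 20 shorter ones (15%), against 21.9% of all shorter domains. Both background shares count each domain once, although a shared domain marks more than 1 gene, so they are not like a count by gene. By gene, 180 of the 330 broad protein-coding genes shared no domain, against 4 of the 11 broad splicing factor genes. Without the genes that shared a domain, 4 of 24 were broad (16.7%, interval 4.74 to 37.4%), namely SRSF3, TRA2B, HNRNPD and HNRNPL, against 1.09% of 16464 protein-coding genes treated alike. A peak over a shared promoter cannot be split between the genes in these files.

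The splice site factors had no broad domain. SF3B1, the component of the U2 particle most often mutated in myelodysplasia and chronic lymphocytic leukaemia, had 2286 bp at a pileup of 16.97 and a fold of 5.82. U2AF2 had 2658 bp at a pileup of 16.98 and a fold of 5.73, and a further domain of 772 bp at its other end reached an end of EPN1. U2AF1 stood apart, with a peak of 266 bp (chr21:43107050-43107315), a pileup of 5.34, a fold of 1.93 and a −log10 q of 1.31, the lowest value of the set in each of these measures. The listed start of U2AF1 lay 255 bp outside the peak.

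GRCh38 holds a near-identical copy of U2AF1 on the same chromosome, LOC102724594 (synonym U2AF1L5, chr21:6484623-6499248), with a span of 14626 bp, against 14623 bp for U2AF1. The windows of both starts are shown because they differ at 1 of 300 promoter bases, A262C, counted from 1 at the 5′ end of the window with the U2AF1 base first; that base is the capital. They cover 280 bases on the minus strand, chr21:43107541-43107820 and chr21:6499219-6499498 (RefSeq, GRCh38.p14).
U2AF1 start: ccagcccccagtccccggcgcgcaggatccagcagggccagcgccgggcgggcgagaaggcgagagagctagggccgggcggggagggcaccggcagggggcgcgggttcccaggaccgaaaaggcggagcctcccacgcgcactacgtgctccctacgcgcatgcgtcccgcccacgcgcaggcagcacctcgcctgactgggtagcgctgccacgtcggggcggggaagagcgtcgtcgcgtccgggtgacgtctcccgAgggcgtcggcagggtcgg
LOC102724594 start: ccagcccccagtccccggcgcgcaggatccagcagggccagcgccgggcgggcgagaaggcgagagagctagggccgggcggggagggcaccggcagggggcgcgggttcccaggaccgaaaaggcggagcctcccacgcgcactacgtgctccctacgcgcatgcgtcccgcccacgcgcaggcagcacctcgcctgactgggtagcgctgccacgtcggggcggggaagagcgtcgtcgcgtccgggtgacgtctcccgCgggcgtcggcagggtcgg
LOC102724594 had a peak of much the same shape, 268 bp long (chr21:6498735-6499002), with a pileup of 5.95, a fold of 2.55 and a −log10 q of 1.75. It ended 246 bp inside the end of its gene, and the U2AF1 peak 263 bp inside. Of the runs of 25 bases in the U2AF1 window, 251 of 276 (90.9%) occur in that of the copy. How reads that match both places were treated is not given in the sources used here, so both values are uncertain, and the part of the copy in the low U2AF1 signal was not tested. Among the 31 splicing factor genes with a promoter window, no other one had a protein-coding counterpart that shared 50% or more of its runs.

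The core of the splicing machinery was also mostly marked, with shorter domains. The 16 core proteins of the snRNPs, the particles that recognise splice sites, had 15 marked genes, 0 broad ones (interval up to 20.6%) and a median of 1456 bp. SNRPN had a domain only inside the gene, of 1954 bp. The 26 factors of the U2 particle, the tri-snRNP and catalysis had 25 marked genes, 0 broad ones (interval up to 13.2%) and a median of 1673 bp. CRNKL1 had one only inside the gene, of 1342 bp. The median of the SR and hnRNP set, 3023 bp, was above the upper quartile of both of these lists, 2218.5 and 2297 bp.

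Among the 9 kinases that phosphorylate SR proteins, 6 were marked at an end and DYRK1A was broad, with 4067 bp. SRPK2 and CLK3 had domains only inside the gene, of 3279 and 2358 bp, and SRPK3, known from muscle, had none. Of the 5 other splicing lists, that of the 44 other widely expressed regulators had the median nearest to the SR and hnRNP set: 42 were marked, 5 were broad (11.4%, interval 3.79 to 24.6%) and the median was 2646 bp. The 5 were KHDRBS1 (Sam68) with 11320 bp, HNRNPUL2 with 4604 bp, PCBP1 with 4350 bp, HNRNPUL1 with 4072 bp and SYNCRIP with 4049 bp. HNRNPUL1 and HNRNPUL2 are hnRNP genes by name, as are HNRNPAB, HNRNPH2 and HNRNPLL of the same list, which were not broad. This list is therefore not free of hnRNP genes. Of the 44, MBNL2 had no domain and CELF2 had one only inside the gene, of 4856 bp. Of 22 regulators known from neurons, epithelium, muscle or germ cells, 2 were marked at an end, NOVA1 with 2329 bp and MBNL3 with 2889 bp. CELF5 had a domain of 343 bp inside the gene, and none of the 22 was broad (interval up to 15.4%).

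**Figure D5:**
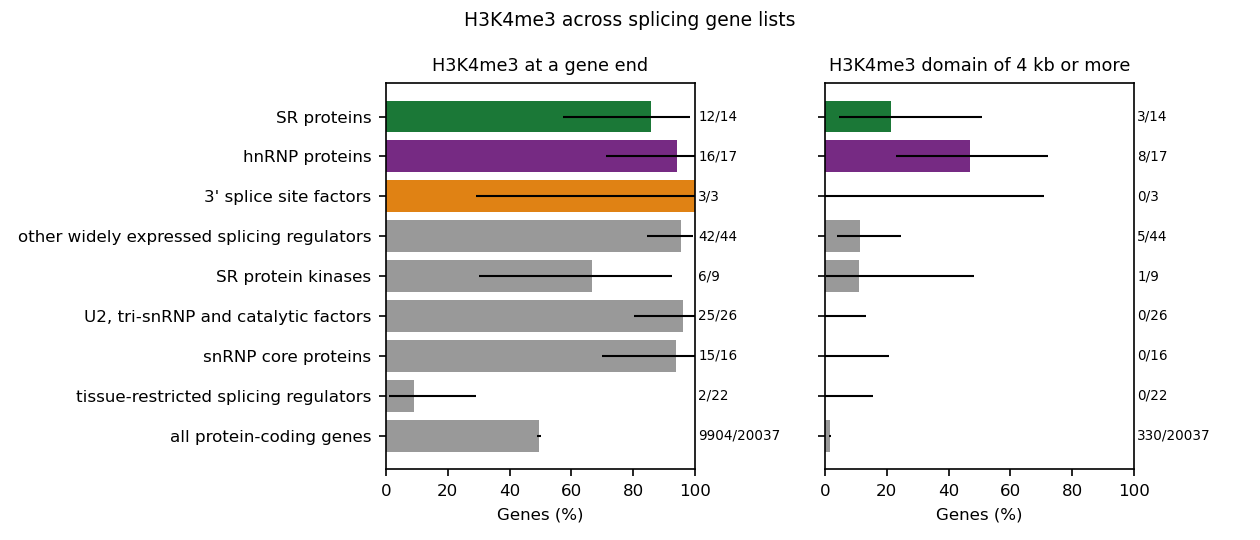
Share of genes (%) with H3K4me3 at an end (left) and with a domain of 4 kb or more there (right) for the 3 splicing factor families (coloured), 5 other splicing lists and all protein-coding genes (grey), with exact 95% intervals as lines and counts at the right. At least 6 of 9 genes were marked in each family and splicing list except the tissue-restricted regulators (2 of 22). Of all genes, 9904 of 20037 were marked. The broad share was 8 of 17 for hnRNP genes, 3 of 14 for SR genes and 330 of 20037 for all genes.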

How the data were processed

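H3K4me1, H3K4me3 and input DNA were sequenced from ALL-SIL, 1 library each. Peaks were called by the authors with MACS2 2.1.0.20150731 in broad mode against the input, at a q of 0.1 for broad and 0.05 for strong regions, with 1 tag kept per position and fragments extended to 201 bp (H3K4me1) and 187 bp (H3K4me3), per the file headers. The build was GRCh38, as the submitters' processing notes name it. The deposited tables give for each peak its length in bp, a pileup (the coverage signal, in extended fragments), the fold enrichment, a ratio to the local background, and the −log10 of p and q, each a mean over the region, per the file headers. The scores are the authors' own and were used to describe or filter peaks within a list. Aligner settings were not given in the sources used here.

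From these lists, peaks with at least 1 bp in common with a window were assigned to RefSeq genes (GRCh38.p14): 1 kb on each side of both ends, inside, and within 50 kb. H3K4me3 peaks up to 1 kb apart were merged into domains, broad from 4 kb, and flanks were the 2 kb beyond each edge. Shares have exact Clopper-Pearson 95% intervals (Python 3.11.15, numpy 2.4.6, pandas 2.3.3, scipy 1.17.1, matplotlib 3.10.9). No test was possible with 1 library per mark. The geometry was checked on simulated data. Named were all genes without H3K4me3, all broad ones, the 3 nearest 4 kb on each side, the 5 highest and 5 lowest pileups, and the extremes of H3K4me1; of the other splicing lists, broad genes, and genes without H3K4me3 where these were 6 or fewer. NOVA1, MBNL3, CELF5 and genes with a domain only inside were named after their values were seen. Values of further members were added to account for all 34. The members and lists were chosen with earlier results of these data known. Alternatives covered peak strength, windows, merging, flank width and shared domains. Depth limits weak peaks, and a missing peak is not evidence of no mark.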

Additional observations from a re-analysis of the deposited data

How the results depend on the processing

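Over 13 alternatives, 18 of 29 recomputed counts stayed within 1.5 times the reported one. With the reported settings 31 genes were marked at an end, 11 were broad, 23 had both flanks, and the median number of distal H3K4me1 peaks was 4. With −log10 q of at least 5, both flanks were found for 1 gene and the distal median was 0, while 29 marked and 11 broad genes were counted. With the stronger 50% of each list by −log10 q, 18 were marked (52.9%, against 25.7% of all genes), 5 broad (14.7%, against 0.878%) and 3 had both flanks, with a distal median of 1. With equal numbers of peaks in both lists, both flanks were again found for 1 gene, with a distal median of 0. A radius of 20 kb gave a distal median of 2. Leaving out the genes whose domain reached another protein-coding end, an alternative chosen after seeing the data, left 4 broad genes and 13 with both flanks among 24. The flank and distal counts thus rest on weak H3K4me1 peaks. The number of broad genes depends on shared domains. The marked and broad counts also depend on peak strength, as they fell to 18 and 5 with the stronger 50% of each list. The other settings (an end window of 2 kb, listed starts only, 500 bp of the window covered, single peaks, 3 kb as the limit, flanks of 1 and 5 kb, and, chosen after seeing the data, H3K4me3 anywhere in the gene) gave 29 to 32 marked, 10 to 16 broad and 20 to 24 with both flanks. No paired analysis was possible because each mark had 1 library and no test was made. For the same reason no library could be left out.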
